A study of Mus musculus with 9 samples.

Results

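Wnt signalling genes were followed in mouse embryonic stem (ES) cells in which deletion of the zinc finger factor Zbtb11 had been induced. The set holds 50 protein-coding genes of the 37310 gene rows in the count files, each picked out by its gene symbol. It comprises 19 ligand genes (symbols of Wnt followed by a digit), 10 Frizzled receptor genes (Fzd followed by a digit) and 21 genes listed by name: the co-receptors Lrp5 and Lrp6, the R-spondin receptors Lgr4 and Lgr5, the ligand-processing genes Porcn and Wls, the signalling genes Ctnnb1, Apc, Axin1, Gsk3b, Tcf7, Tcf7l1, Tcf7l2 and Lef1, and the feedback genes and targets Axin2, Sp5, Nkd1, Nkd2, Rnf43, Znrf3 and Dkk1. Of the 50, 45 had enough reads to be tested. The other 5 were Dkk1, Wnt1, Wnt10b, Wnt2 and Wnt9b.

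As background, Wnt proteins are secreted lipid-modified ligands. They bind a Frizzled receptor together with Lrp5 or Lrp6, which stops the Apc, Axin and Gsk3b complex from marking β-catenin for destruction, and β-catenin then acts in the nucleus with the DNA-binding proteins Tcf7, Tcf7l1, Tcf7l2 and Lef1. Pathway activity is usually read from feedback genes such as Axin2, and in mouse ES cells this branch favours self-renewal, in part by relieving repression by Tcf7l1. Other ligands, Wnt5a and Wnt11 among them, also act through branches that do not need β-catenin.

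All libraries came from the E14 parental line, grown without feeder cells on gelatin in medium with serum and the cytokine LIF. The labelled KO cells had loxP-flanked Zbtb11 alleles (Zbtb11lox/lox) and the ligand-activated recombinase ERt2-Cre at the Rosa26 locus, and received 250 nM 4-hydroxytamoxifen (4OHT) for 72 h. The 4OHT control cells had unmodified Zbtb11 and Rosa26 loci (Zbtb11WT/WT, Rosa26WT) and the same 4OHT dose and time, so they carried neither loxP sites nor Cre. The ethanol control cells were of the Zbtb11lox/lox, ERt2-Cre genotype and received the carrier ethanol for 72 h. Each group had 3 libraries, made from RNA depleted of ribosomal RNA with a kit that keeps strand. The labels do not say whether the 3 came from separate cultures, and the spread on which the p-values rest may therefore be technical.

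Depth, as summed gene counts, ran between 16909139 and 23544893 in the 9 libraries. The Zbtb11 gene count was not lower in the labelled KO libraries, with a mean of 377 CPM (counts per 1000000 counts, scaled by TMM factors) against 368 in the 4OHT control and 355 in the ethanol control (log2 fold change 0.09 against the ethanol control, adjusted p 0.17, with the replicate block 0.032). A count over the whole gene need not fall when a few exons are deleted. Which exons were flanked by loxP is not stated in the labels, so this count is no check on the labels or on protein loss. Reads that fell in no annotated feature were 32.7% to 33.8% of reads in labelled KO libraries, 26.7% to 27.5% in the 4OHT control and 26.4% to 28.7% in the ethanol control, and the part of this gap in the results below was not tested. Summed over 8 ES cell markers (Pou5f1, Nanog, Sox2 and others), the level was 3762 to 4076 CPM in labelled KO, 4085 to 4665 in 4OHT control and 3927 to 4122 in ethanol control libraries, so the labelled cell type was present in all 3 groups. Of 8 markers of mesendoderm and primitive streak, where several Wnt genes are active in the embryo, 7 averaged under 1 CPM, and their summed level was 7.05 to 7.75, 6.70 to 8.60 and 5.26 to 7.15 CPM in labelled KO, 4OHT control and ethanol control libraries. In bulk RNA, fewer cells of a type and less RNA per cell cannot be told apart.

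The promoter windows of 5 genes named in the results are shown, 3 ligand genes with more RNA in the labelled KO libraries (Wnt3, Wnt9a and Wnt8b) and 2 genes with less against the ethanol control (Lef1 and Sp5). Of these, Wnt8b had few reads and passed the filter on low counts only through the labelled KO libraries. Each window runs from 250 bases before to 50 bases after an annotated start, 300 bases in all, from RefSeq on GRCm38.p6. The count files were made on mm9 per the submitters' processing notes, so these coordinates are not those of the counts. Capitals mark CTTTG followed by A or T at both of the next bases, on either strand, the core letters that TCF and LEF proteins bind.
Wnt3 (chr11:103773925-103774224, plus strand): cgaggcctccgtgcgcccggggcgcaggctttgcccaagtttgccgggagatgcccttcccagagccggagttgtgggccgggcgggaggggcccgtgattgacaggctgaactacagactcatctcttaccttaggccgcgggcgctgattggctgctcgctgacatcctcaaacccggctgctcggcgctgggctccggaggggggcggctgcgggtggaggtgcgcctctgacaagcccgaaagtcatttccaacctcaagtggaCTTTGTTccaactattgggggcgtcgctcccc
Wnt9a (chr11:59306680-59306979, plus strand): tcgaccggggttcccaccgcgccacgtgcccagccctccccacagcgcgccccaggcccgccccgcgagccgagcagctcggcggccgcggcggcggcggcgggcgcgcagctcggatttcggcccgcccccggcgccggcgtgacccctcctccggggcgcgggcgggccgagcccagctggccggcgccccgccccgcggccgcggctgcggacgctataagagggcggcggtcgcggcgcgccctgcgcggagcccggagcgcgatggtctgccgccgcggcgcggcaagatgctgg
Wnt8b (chr19:44493222-44493521, plus strand): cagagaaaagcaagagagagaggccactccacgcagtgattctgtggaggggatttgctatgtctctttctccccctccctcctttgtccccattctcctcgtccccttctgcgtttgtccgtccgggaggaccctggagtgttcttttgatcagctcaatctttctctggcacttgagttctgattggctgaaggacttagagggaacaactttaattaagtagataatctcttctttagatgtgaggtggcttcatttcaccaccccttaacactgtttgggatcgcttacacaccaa
Lef1 (chr3:131110047-131110346, plus strand): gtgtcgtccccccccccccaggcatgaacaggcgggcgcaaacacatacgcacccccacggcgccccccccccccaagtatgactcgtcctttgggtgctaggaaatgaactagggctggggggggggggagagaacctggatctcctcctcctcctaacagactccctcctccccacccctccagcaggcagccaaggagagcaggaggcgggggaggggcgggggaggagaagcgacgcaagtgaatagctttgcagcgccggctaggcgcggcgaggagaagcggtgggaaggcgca
Sp5 (chr2:70474673-70474972, plus strand): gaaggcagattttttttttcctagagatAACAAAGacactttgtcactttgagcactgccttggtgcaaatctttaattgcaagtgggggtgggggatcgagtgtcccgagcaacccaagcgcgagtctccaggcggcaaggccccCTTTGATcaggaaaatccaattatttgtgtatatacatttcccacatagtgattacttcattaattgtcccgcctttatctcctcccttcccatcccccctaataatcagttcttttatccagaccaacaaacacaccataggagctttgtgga
Sp5 held 2 matches, the first at base 29 of the window, and Wnt3 held 1, at base 269 and so after the start. The windows of Wnt9a and Wnt8b held none of these letters. The Lef1 window shown is the first of 4 in the table and held none, while the fourth held 1 match, at base 104. Of the 50 genes, 35 had a window in the table, with 45 windows in all, and 8 of these 45 held a match (17.8%), against 16.9% of all 32851 promoter windows. The 45 windows were richer in G and C than windows in general, with a median GC content of 66.7% against 52.7% and a median of 24 CpG dinucleotides against 7. The files list these 5 genes as ENSMUSG00000000125.5 (Wnt3), ENSMUSG00000000126.5 (Wnt9a), ENSMUSG00000036961.4 (Wnt8b), ENSMUSG00000027985.8 (Lef1) and ENSMUSG00000075304.2 (Sp5).

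Several ligand genes had more RNA in the labelled KO libraries than in either control, while Lef1, Apc and Fzd5 had less. Against the ethanol control, 9 of the 45 genes tested rose (20%) and 5 fell (11.1%), with the threshold at 0.05 for the false discovery rate (FDR), the Benjamini-Hochberg adjusted p of edgeR's quasi-likelihood test. Among all 16224 genes tested in that comparison 13.0% rose and 14.2% fell, so the overall share of Wnt genes called was near that of genes in general. Against the 4OHT control 9 rose (20%) and 11 fell (24.4%), beside 19.1% and 19.8% of all genes. Wnt8b, Wnt10a and Wnt11 passed the filter on low counts only through the labelled KO libraries, and without them 6 of 42 rose (14.3%) in each of these comparisons. The 4OHT control against the ethanol control gave 4 higher (8.89%) and 4 lower (8.89%), beside 9.66% and 8.75% of all genes. The median log2 fold change of the 45 was 0.00, -0.01 and 0.06 in these 3 comparisons, against 0.01, 0.02 and 0.00 over all genes tested. Each pair of comparisons shares 1 group of libraries, so the 3 are not independent of each other. Scaling by library totals in place of TMM factors moved the split of all genes to 3038 higher and 1527 lower against the ethanol control, where TMM gave 2110 and 2307, and to 4215 and 2328 against the 4OHT control, where TMM gave 3103 and 3216. The members then split 12 higher and 3 lower, and 13 higher and 8 lower.

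Counting libraries in place of calls, 8 of the 45 genes (17.8%) had all 3 labelled KO libraries above all 6 control libraries, and 5 (11.1%) had all 3 below. The 8 were Wnt3, Wnt6, Wnt8a, Wnt8b, Wnt9a, Wnt10a, Wnt11 and Rnf43, and the 5 were Apc, Axin1, Fzd5, Lef1 and Tcf7l1. Over all genes tested these shares were 13.5% and 13.1%. The genes that lay above were ligands apart from Rnf43, and those that lay below held no ligand. For Wnt8b, Wnt10a and Wnt11 that place was favoured by the filter on low counts, so the 17.8% rests on it in part. Without these, Wnt3, Wnt6, Wnt8a, Wnt9a and Rnf43 were left above, out of 42 genes. That is a smaller share than the 13.5% of all genes tested, though the latter was not cut in the same way. With the replicate number as a block in the fit, which the pairing of the libraries warranted, the members called higher and lower numbered 13 and 10 against the ethanol control, 14 and 13 against the 4OHT control, and 14 and 10 for the 4OHT control against the ethanol control. The block also raised the shares of all genes, to 20.4% higher and 22.3% lower (42.8% in either direction) against the ethanol control. Against the 4OHT control these shares were 25.5% and 25.9% (51.4%). In the last comparison 2754 of 16224 genes were higher and 2569 lower (32.8% in either direction). In each comparison the share of the 45 members called in either direction exceeded that of all genes, most of all in the last. These gaps were not tested. Where the block is not named, calls and shares are those of the fit without it.

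**Figure D1:**
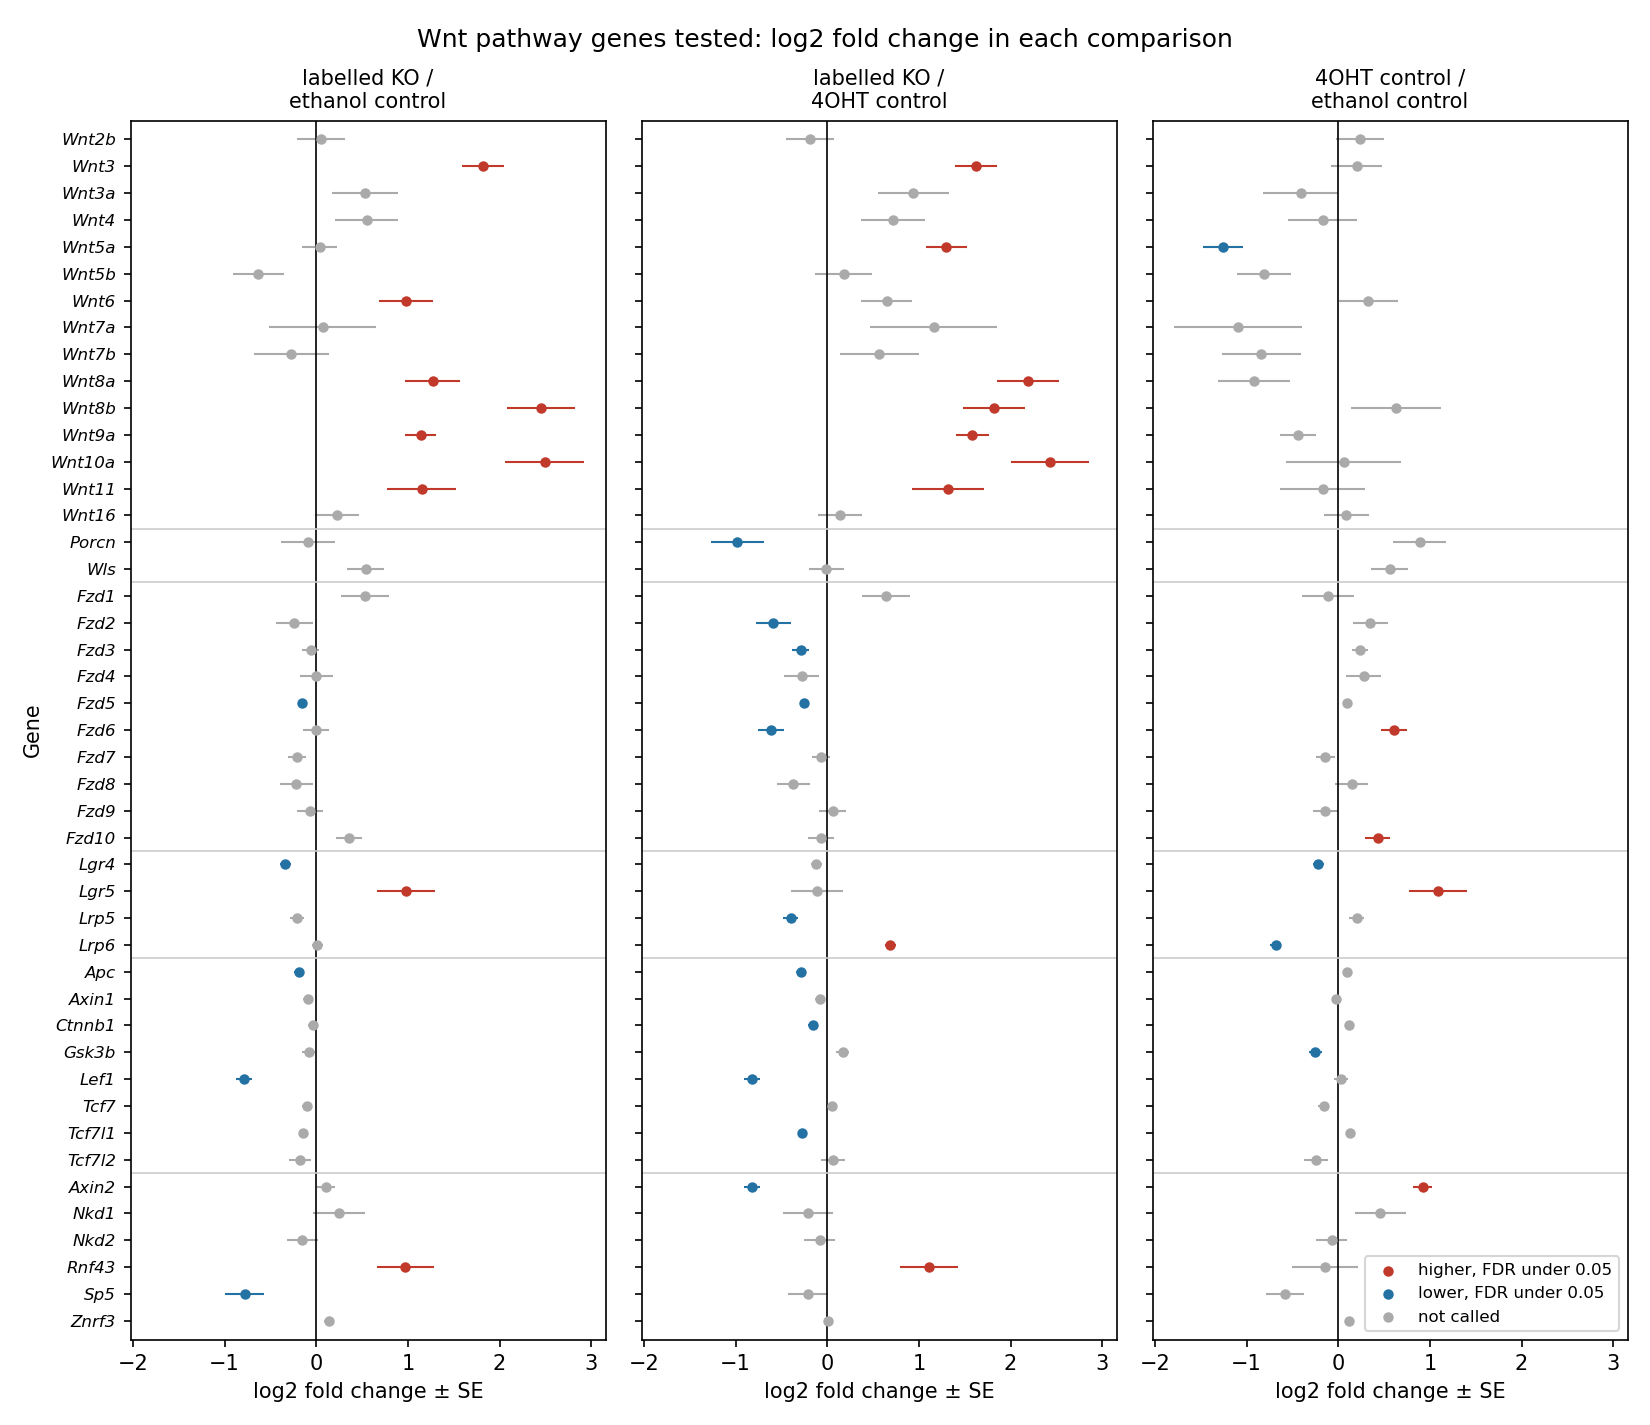
Log2 fold change (x axis) with its standard error for each of the 45 Wnt pathway genes tested (y axis, grouped from ligands at the top to feedback genes at the bottom) in the 3 comparisons, with calls at an FDR under 0.05 in colour. In the left and middle panels the points farthest to the right are ligands, with Wnt10a at 2.49 against the ethanol control and 2.43 against the 4OHT control. Wnt10a, Wnt8b and Wnt11 passed the filter on low counts only through the labelled KO libraries, which favoured a higher level there. Apart from them, the farthest are Wnt3 at 1.82 against the ethanol control and Wnt8a at 2.19 against the 4OHT control.

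The ligand genes included the largest differences among the members against both controls, and their median level was the lowest of the classes. Levels between genes are compared per length, as CPM per kilobase of exon. On that scale no ligand group mean exceeded 2.31, the mean of Wnt7b in the ethanol control, and the median ligand stood at 0.327 in labelled KO, 0.229 in 4OHT control and 0.245 in ethanol control libraries. Summed over the 19 genes, the ligand level was 10.6, 9.96 and 8.35 CPM per kilobase in the labelled KO libraries, against 5.99, 4.52 and 3.86 in the 4OHT control and 7.54, 6.45 and 6.29 in the ethanol control. All 3 labelled KO libraries lay above all 6 control libraries, and the 4OHT control libraries lay below the ethanol control libraries. Means were 9.63 ± 1.15 in labelled KO, 4.79 ± 1.09 in 4OHT control and 6.76 ± 0.678 in ethanol control libraries (SD, n = 3 each).

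**Figure D2:**
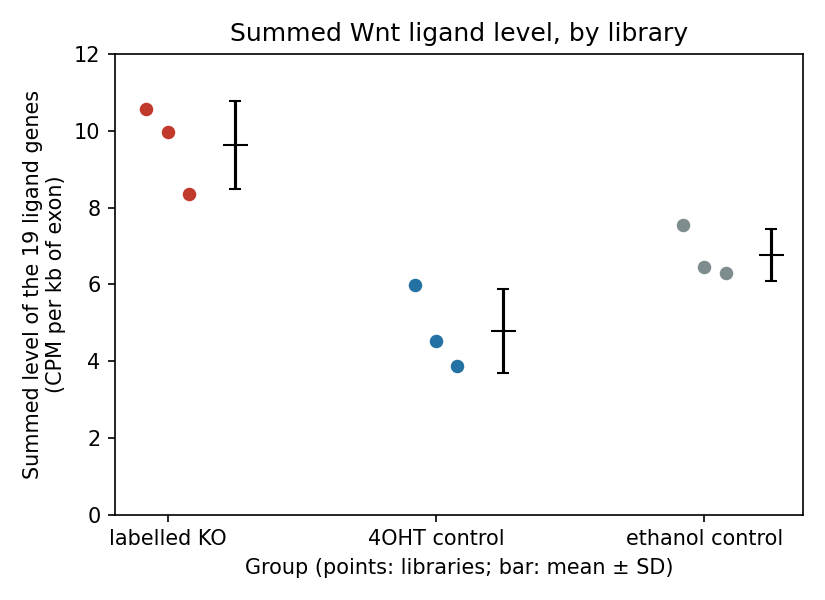
Summed level of the 19 Wnt ligand genes in CPM per kilobase of exon (y axis) in each library, with the group's mean and SD as the black bar beside its points (x axis, group). The labelled KO libraries lie between 8.35 and 10.6, above every control library.

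Wnt7b, a ligand of lung, kidney and placenta development, was the most abundant ligand per length in every group and made up 19.9% of the ligand sum in labelled KO, 26.9% in 4OHT control and 34.1% in ethanol control libraries. Wnt9a followed in the labelled KO libraries with 16.1% of the sum, against 10.7% in the 4OHT control and 10.5% in the ethanol control. Wnt8a made up 12.6% in labelled KO, 5.75% in 4OHT control and 7.54% in ethanol control libraries, and Wnt3 made up 8.97%, 5.78% and 3.63% in those groups. The mix of ligand RNA thus differed between groups, with Wnt7b at a smaller share in the labelled KO libraries.

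Of the 15 ligand genes tested, 7 rose against the ethanol control (46.7%) and none fell. The 7 were Wnt3, Wnt6, Wnt8a, Wnt8b, Wnt9a, Wnt10a and Wnt11. Of these, Wnt8b, Wnt10a and Wnt11 passed the filter on low counts only through the labelled KO libraries, which favoured a higher level there. Of the 12 ligands left without them, 4 rose (33.3%). As 13 of the 15 averaged under 4 CPM, the nearer background is that of genes under 4 CPM, of which 13.6% rose and 2.67% fell. The median log2 fold change of the 15 ligands was 0.55, and 0.38 over the 12. Some markers of other cell types, named here after their values were seen, were likewise higher in every labelled KO library than in every control library. Of the primitive endoderm list, in which 3 of 8 genes rose and 1 fell against the ethanol control, Gata6 had 3.07 to 4.43 CPM in labelled KO, 1.12 to 1.59 in 4OHT control and 1.18 to 1.96 in ethanol control libraries, and Sox17 had 0.632 to 0.806, 0.176 to 0.384 and 0.350 to 0.364 CPM in those groups. Of the trophectoderm list, 1 of 8 rose and none fell. Its member Elf5 had 0.486 to 0.780 CPM in labelled KO, 0.235 to 0.332 in 4OHT control and 0.364 to 0.481 in ethanol control libraries, a narrow gap. No other gene of that list lay above all control libraries. Tfap2c, its most abundant gene, was lower than in the ethanol control, at 59.2 to 65.7 against 65.8 to 74.3 CPM. The pattern was not confined to these lists. Pdgfra of the primitive endoderm list, Lhx1 of the mesendoderm list, and Neurog2 and Zic1 of the neural ectoderm list also lay above all control libraries. So did Col1a1 and Col3a1 of the fibroblast list. Lhx1, Neurog2, Zic1 and Col3a1 stayed under 1 CPM in every library. No gene of the mesendoderm, neural ectoderm or fibroblast lists was called against the ethanol control. The part of such cells in the ligand differences was not tested.

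Wnt3, a ligand needed for primitive streak formation in the mouse embryo, had 2.50, 2.92 and 2.55 CPM in labelled KO libraries, 0.996, 0.646 and 0.913 CPM in 4OHT control libraries and 0.637, 0.787 and 0.837 CPM in ethanol control libraries. The lowest labelled KO library was more than any control library, and the controls overlapped each other. Its log2 fold change (a difference of log2 levels, with its standard error, SE) was 1.82 (SE 0.23) against the ethanol control, a fold of 3.53, with an adjusted p of 3.2e-05 in edgeR. Against the 4OHT control it was 1.62 (SE 0.23, adjusted p 4.2e-05), and the controls differed by 0.20 (SE 0.28, adjusted p 0.67). Its neighbour on the chromosome, Wnt9b, was not tested, with 11 reads summed over the labelled KO libraries, 5 over the 4OHT control and 4 over the ethanol control.

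Wnt9a, known for its part in joint formation, had 5.52, 4.91 and 5.04 CPM in labelled KO libraries, 1.99, 1.29 and 1.83 CPM in 4OHT control libraries and 2.32, 2.19 and 2.57 CPM in ethanol control libraries. The groups did not overlap, and the labelled KO libraries lay within a narrow range. It rose by 1.14 on the log2 scale (SE 0.17, adjusted p 0.00016) against the ethanol control and by 1.58 (SE 0.18, adjusted p 4.7e-06) against the 4OHT control. The adjacent gene Wnt3a, a ligand of the posterior embryo often used to activate the pathway in culture, had 1.66, 1.12 and 0.884 CPM in labelled KO, 1.04, 0.470 and 0.384 CPM in 4OHT control and 1.18, 0.787 and 0.538 CPM in ethanol control libraries. In each group replicate 1 was its highest library, and the groups overlapped. Its log2 fold changes of 0.53 against the ethanol control and 0.94 against the 4OHT control were not called (adjusted p 0.30 and 0.067), though the one against the 4OHT control passed with the replicate block (adjusted p 0.0068).

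Wnt8a, expressed in the posterior epiblast and primitive streak of the mouse embryo, had 2.21, 2.53 and 1.61 CPM in labelled KO libraries, 0.379, 0.823 and 0.240 CPM in 4OHT control libraries and 0.865, 0.787 and 1.02 CPM in ethanol control libraries. Every labelled KO library exceeded every control library, while 2 of the 3 4OHT control libraries lay below all ethanol control libraries. The log2 fold change was 1.27 (SE 0.30, adjusted p 0.0051) against the ethanol control and 2.19 (SE 0.34, adjusted p 0.00011) against the 4OHT control. Wnt8b, a ligand of the developing forebrain, had 21, 20 and 17 reads in labelled KO libraries, against 6, 3 and 6 in the 4OHT control and 3, 5 and 2 in the ethanol control. These few reads gave log2 fold changes of 2.45 (SE 0.37, adjusted p 0.00018) against the ethanol control and 1.82 (SE 0.34, adjusted p 0.00058) against the 4OHT control.

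Wnt10a and Wnt6 are neighbouring genes, the first active in tooth and skin appendages. Wnt10a had 24, 17 and 13 reads in labelled KO libraries, 5, 3 and 1 in 4OHT control libraries and 3, 4 and 2 in the ethanol control. Its log2 fold change was 2.49 (SE 0.43, adjusted p 0.00059) against the ethanol control and 2.43 (SE 0.43, adjusted p 0.00039) against the 4OHT control. Wnt6 had 2.08, 1.61 and 1.14 CPM in labelled KO, 0.949, 1.12 and 1.06 CPM in 4OHT control and 0.910, 1.01 and 0.478 CPM in ethanol control libraries. The labelled KO library with the least Wnt6 stood just above the highest control library. Wnt6 rose by 0.98 (SE 0.29, adjusted p 0.021) against the ethanol control, a call that ended without labelled KO replicate 1 (0.12) or ethanol control replicate 3 (0.083). Against the 4OHT control it differed by 0.65 (SE 0.28, adjusted p 0.084), and by the block fit with an adjusted p of 0.038.

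Wnt11, which guides cell movements and kidney branching, had 13, 15 and 18 reads in labelled KO libraries, 4, 4 and 9 in 4OHT control libraries and 6, 9 and 5 in the ethanol control. It rose by 1.15 (SE 0.38, adjusted p 0.033) against the ethanol control and by 1.32 (SE 0.39, adjusted p 0.014) against the 4OHT control. The call against the ethanol control ended without labelled KO replicate 2 (adjusted p 0.069) or 3 (0.12) and without ethanol control replicate 1 (0.11), 2 (0.059) or 3 (0.085). The call against the 4OHT control ended without labelled KO replicate 3 (0.058) or 4OHT control replicate 1 (0.066), and in DESeq2 (0.067). A gene on the opposite strand, Gm8398, overlaps Wnt11, and whether the counting used strand is not stated.

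Wnt5a, the best-known ligand of the β-catenin-independent branch, set the controls apart. It had 4.75, 5.30 and 6.60 CPM in labelled KO libraries, 2.37, 2.12 and 2.21 CPM in 4OHT control libraries and 4.01, 5.03 and 7.29 CPM in ethanol control libraries. Labelled KO and ethanol control libraries overlapped fully, and the 4OHT control libraries lay below both. Accordingly it rose by 1.30 (SE 0.22, adjusted p 0.00022) against the 4OHT control, differed by 0.04 (SE 0.19, adjusted p 0.89) against the ethanol control, and was lower by -1.26 (SE 0.22, adjusted p 0.00077) in the 4OHT control against the ethanol control. The summed level of 8 primitive endoderm markers moved in the same way, at 253 to 302 CPM in labelled KO, 162 to 175 in 4OHT control and 300.0 to 307 in ethanol control libraries, with 1 of the 8 under 1 CPM and none at 0, and their part in the Wnt5a result was not tested. Most of that sum was Lama1, at 190 to 233 CPM in labelled KO, 115 to 130 in 4OHT control and 243 to 258 in ethanol control libraries.

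Against the 4OHT control, 7 of the 15 ligands rose (46.7%) and none fell, namely Wnt3, Wnt5a, Wnt8a, Wnt8b, Wnt9a, Wnt10a and Wnt11, and 4 of 12 (33.3%) without those that passed the filter through the labelled KO libraries alone. Among genes under 4 CPM 19.1% rose and 7.50% fell in that comparison. With the replicate block 10 of the 15 ligands rose and none fell there, beside 25.5% and 25.9% of all genes. For the 4OHT control against the ethanol control none of the 15 ligands was called higher and 1, Wnt5a, was called lower (6.67%), beside 5.33% and 3.81% of genes under 4 CPM. The other ligands tested were not called against either control in the fit without a block. Wnt2b, Wnt4, Wnt5b, Wnt7a, Wnt7b and Wnt16 had log2 fold changes between -0.63 (Wnt5b) and 0.55 (Wnt4) against the ethanol control and between -0.19 (Wnt2b) and 1.16 (Wnt7a) against the 4OHT control. Wnt7b had 11.3, 9.92 and 6.92 CPM in labelled KO, 10.4, 4.76 and 3.75 CPM in 4OHT control and 15.8, 9.36 and 8.79 CPM in ethanol control libraries, with replicate 1 highest in each group. With the replicate block it was called higher against the 4OHT control (log2 fold change 0.59, adjusted p 0.002) and lower in the 4OHT control against the ethanol control (-0.85, adjusted p 0.0001). The ligands that were not tested stood at or near 0, with 2, 4 and 0 reads of Wnt1, 4, 1 and 2 of Wnt10b and 1, 4 and 3 of Wnt2, each summed over labelled KO, 4OHT control and ethanol control libraries.

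**Figure D3:**
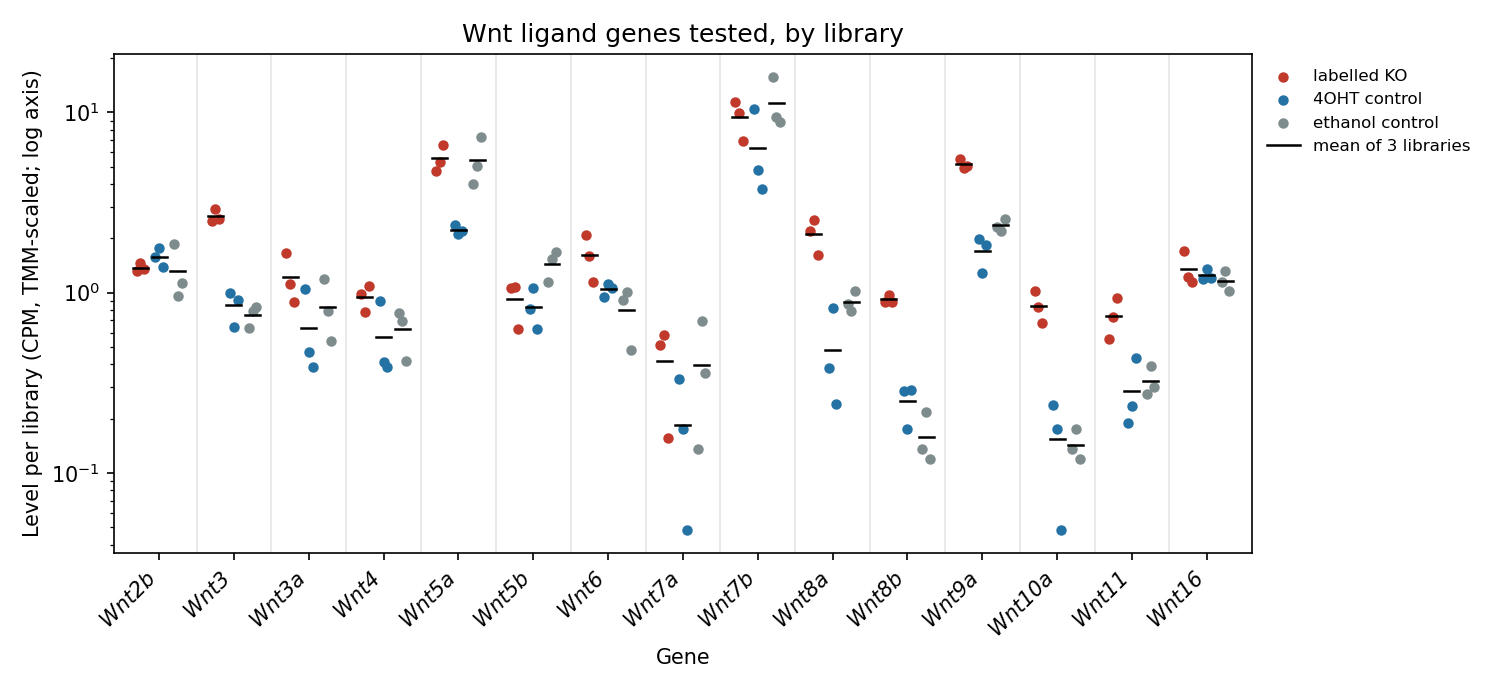
Level of each of the 15 tested Wnt ligand genes (x axis) in every library in CPM on a log axis (y axis), with the mean of the 3 libraries of each group as a black line. For Wnt3, Wnt6, Wnt8a, Wnt8b, Wnt9a, Wnt10a and Wnt11 every labelled KO point lies above all 6 control points.

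Ligands are made ready for secretion by Porcn, which attaches the lipid in the endoplasmic reticulum, and Wls, which carries the modified ligand to the cell surface. Neither was called between labelled KO and ethanol control libraries. Porcn had 33.7, 27.1 and 20.95 CPM in labelled KO libraries, 69.8, 48.5 and 43.5 CPM in 4OHT control libraries and 38.7, 24.5 and 23.7 CPM in ethanol control libraries. The 4OHT control libraries lay above all others, and replicate 1 was the highest in each group. Porcn fell by 0.98 (SE 0.29, adjusted p 0.034) against the 4OHT control, which itself exceeded the ethanol control by 0.89 (SE 0.29, adjusted p 0.079), which passed with the replicate block (adjusted p 2.2e-13). The first of these calls ended without labelled KO replicate 2 (adjusted p 0.086) or 3 (0.085), without 4OHT control replicate 1 (0.078) or 2 (0.063), and with library totals in place of TMM factors (0.052). That call was kept with the replicate block (adjusted p 7.9e-15). Wls had 2.04, 2.58 and 2.65 CPM in labelled KO, 2.66, 2.12 and 2.50 CPM in 4OHT control and 1.64, 1.75 and 1.55 CPM in ethanol control libraries. Both groups given 4OHT thus lay above the ethanol control, by 0.54 (SE 0.20, adjusted p 0.052) for labelled KO and 0.56 (SE 0.20, adjusted p 0.063) for the 4OHT control, and both passed with the replicate block (adjusted p 0.029 and 0.032).

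Frizzled receptor RNA was carried mainly by Fzd5 and Fzd7. Per length, Fzd5 stood at 27.3 ± 0.681, 32.5 ± 1.31 and 30.3 ± 1.18 CPM per kilobase in labelled KO, 4OHT control and ethanol control libraries (mean ± SD, n = 3 each), and Fzd7 at 14.3 ± 1.08, 15.02 ± 2.28 and 16.6 ± 1.198. The median of the 10 Frizzled genes was 1.24 in labelled KO, 1.47 in 4OHT control and 1.12 in ethanol control libraries. Summed over the 10, the level was 51.4 to 54.8 CPM per kilobase in labelled KO libraries, 55.9 to 65.9 in 4OHT control libraries and 54.9 to 61.7 in ethanol control libraries. The highest labelled KO library, at 54.75, lay just under the lowest control library, at 54.93, a gap smaller than the range within any group.

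No Frizzled gene rose in the labelled KO libraries in the fit without a block. Against the ethanol control 1 of 10 fell (10%), and against the 4OHT control 4 of 10 fell (40%), beside 14.2% and 19.8% of all genes. Genes under 4 CPM fell less often (2.67% and 7.50%), so the shares were higher among more abundant genes. Fzd5 had 190, 184 and 193 CPM in labelled KO, 215, 227 and 232 CPM in 4OHT control and 200, 211 and 216 CPM in ethanol control libraries. All 3 labelled KO libraries were lowest, but the difference was small, with log2 fold changes of -0.15 (SE 0.05, adjusted p 0.042) against the ethanol control and -0.25 (SE 0.05, adjusted p 0.0011) against the 4OHT control. The call against the ethanol control ended without labelled KO replicate 1 (adjusted p 0.073) or 2 (0.076), without ethanol control replicate 2 (0.11) or 3 (0.14), with library totals (0.26), with no filter (0.067), with a filter at 1 CPM in 3 libraries (0.050, just over the threshold) and in the fit of those 2 groups alone (0.056).

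Fzd6 fell by 0.61 (SE 0.14, adjusted p 0.0021) against the 4OHT control, Fzd2 by 0.59 (SE 0.19, adjusted p 0.032) and Fzd3 by 0.29 (SE 0.09, adjusted p 0.014). Fzd6 had 4.63, 4.57 and 5.15 CPM in labelled KO, 6.59, 7.23 and 8.12 CPM in 4OHT control and 4.46, 4.55 and 5.44 CPM in ethanol control libraries. It was the 4OHT control that stood apart for Fzd6, by 0.61 (SE 0.14, adjusted p 0.0052) above the ethanol control, while labelled KO and ethanol control libraries overlapped. The Fzd2 call ended without labelled KO replicate 1 (adjusted p 0.11) or 2 (0.11) and without 4OHT control replicate 2 (0.077) or 3 (0.10), and the Fzd3 call without 4OHT control replicate 3 (0.053) and with library totals (0.064). With the replicate block the Fzd2 and Fzd3 calls were kept (adjusted p 1.4e-06 and 0.0022). Against the ethanol control, where libraries overlapped, Fzd2 and Fzd3 differed by -0.24 and -0.06 (adjusted p 0.40 and 0.67 without the block). The 4OHT control stood above the ethanol control by 0.35 for Fzd2 and 0.24 for Fzd3. These were called only with the block (adjusted p 0.002 and 0.019, without it 0.25 and 0.071). Fzd10 was called in the 4OHT control against the ethanol control (0.43, SE 0.14, adjusted p 0.049), a call that ended without any 1 of the 9 libraries (adjusted p 0.056 to 0.15).

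The remaining Frizzled genes were not called between labelled KO and control libraries without the block. Fzd7 had 60.5, 64.2 and 70.2 CPM in labelled KO, 57.9, 67.7 and 78.6 CPM in 4OHT control and 70.6, 73.7 and 81.2 CPM in ethanol control libraries. Replicate 3 was the highest library in each group, and its log2 fold change of -0.21 against the ethanol control (adjusted p 0.13) passed with the replicate block (adjusted p 0.00043). The block also called Fzd1 higher (0.52, adjusted p 0.040), Fzd10 higher (0.36, adjusted p 0.038) and Fzd2 lower (-0.23, adjusted p 0.033) against the ethanol control, and Fzd1 higher (0.66, adjusted p 0.0095) and Fzd8 lower (-0.36, adjusted p 0.046) against the 4OHT control. Fzd4 and Fzd9 were not called in any comparison, with log2 fold changes between -0.28 and 0.28.

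The co-receptors Lrp5 and Lrp6 form part of the receptor complex, and Lrp6 separated the 4OHT control from both other groups. Lrp6 had 222, 201 and 228 CPM in labelled KO libraries, 141, 129 and 134 CPM in 4OHT control libraries and 223, 215 and 211 CPM in ethanol control libraries. Labelled KO and ethanol control overlapped, and no 4OHT control library came near them. It rose by 0.69 (SE 0.06, adjusted p 1.5e-07) against the 4OHT control, was lower by -0.68 (SE 0.06, adjusted p 8.4e-07) in the 4OHT control against the ethanol control, and differed by 0.01 (SE 0.06, adjusted p 0.93) between labelled KO and ethanol control. The controls differ in both genotype and drug, so cell line and 4OHT cannot be told apart here. Lrp5 fell by 0.40 (SE 0.08, adjusted p 0.0011) against the 4OHT control, with 46.1, 46.4 and 55.4 CPM in labelled KO, 61.4, 61.3 and 72.5 CPM in 4OHT control and 56.9, 54.6 and 59.2 CPM in ethanol control libraries. Against the ethanol control its difference was -0.21 (SE 0.08, adjusted p 0.072), and 0.0007 with the replicate block.

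Lgr4 and Lgr5 bind R-spondins, secreted proteins that raise the response to Wnt. Lgr4, the more abundant by far per length (24.2, 26.3 and 30.7 CPM per kilobase in labelled KO, 4OHT control and ethanol control, against 0.0781, 0.0851 and 0.0390 for Lgr5), had 136, 138 and 154 CPM in labelled KO libraries, 150, 156 and 158 CPM in 4OHT control libraries and 172, 179 and 190 CPM in ethanol control libraries. The ethanol control libraries were all highest. Lgr4 fell by 0.34 (SE 0.06, adjusted p 0.0005) against the ethanol control, differed by -0.12 (SE 0.06, adjusted p 0.12, with the replicate block 0.0085) against the 4OHT control, and was lower by -0.22 (SE 0.06, adjusted p 0.014) in the 4OHT control against the ethanol control. The last of these ended without 4OHT control replicate 1 (adjusted p 0.053) or ethanol control replicate 3 (0.073).

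Lgr5, a pathway target and a marker of intestinal stem cells, ran the other way at a low level, with 20, 17 and 14 reads in labelled KO libraries, 18, 17 and 16 in 4OHT control libraries and 7, 12 and 6 in the ethanol control. Both 4OHT-treated groups thus had more reads than the ethanol control, by 0.98 (SE 0.32, adjusted p 0.031) for labelled KO and 1.09 (SE 0.32, adjusted p 0.025) for the 4OHT control, and they differed from each other by -0.11 (SE 0.28, adjusted p 0.79). The labelled KO call ended without labelled KO replicate 1 (adjusted p 0.094) or 2 (0.072), without ethanol control replicate 1 (0.12) or 3 (0.086), with no filter (0.060) and in DESeq2 (0.13). The 4OHT control call ended without 4OHT control replicate 1 (0.056) or 2 (0.085), without ethanol control replicate 1 (0.11) or 3 (0.074), and in DESeq2 (0.10). A930009A15Rik overlaps Lgr5 on the opposite strand, so reads of the 2 may not have been told apart.

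**Figure D4:**
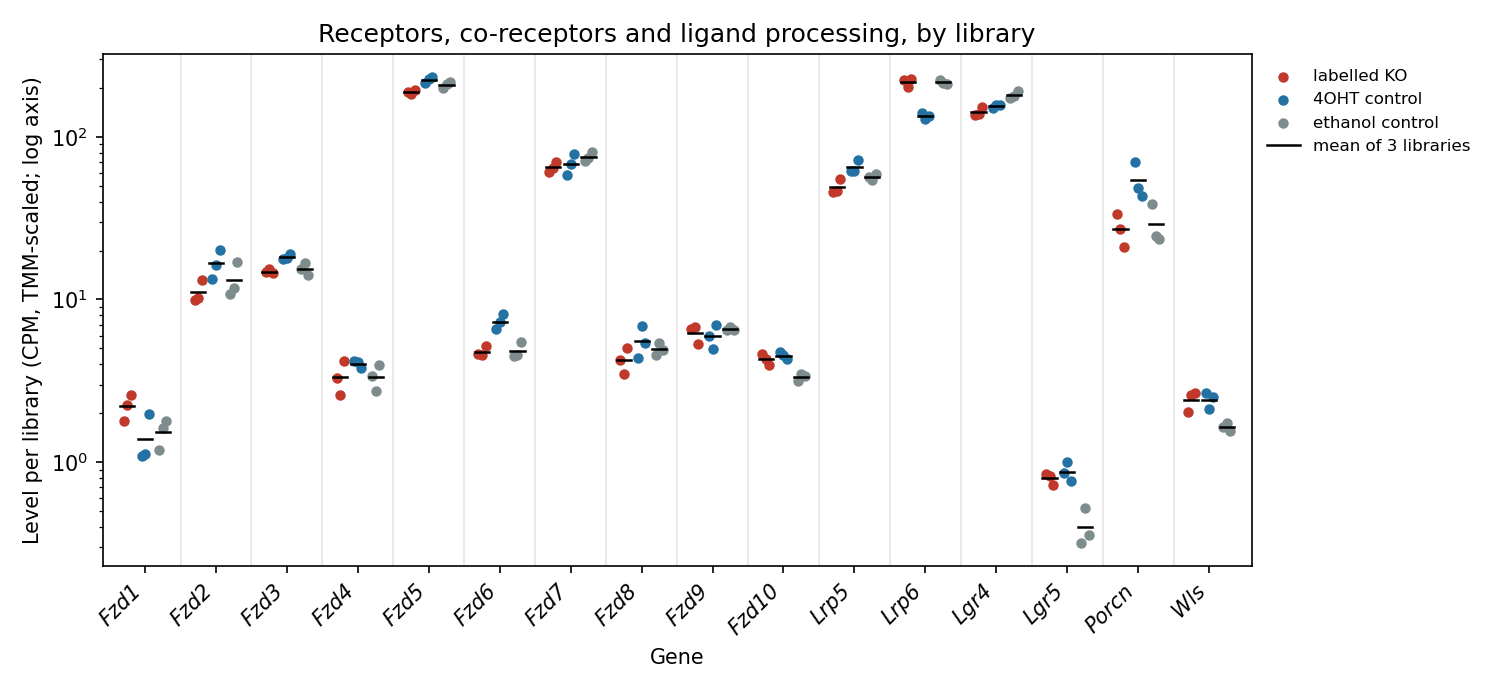
Level of the 10 Frizzled genes, the co-receptor and R-spondin receptor genes and the ligand-processing genes Porcn and Wls (x axis) in every library in CPM on a log axis (y axis), with group means as black lines. The 4OHT control points stand apart for Lrp6 (129 to 141 CPM, below all others) and Porcn (43.5 to 69.8 CPM, above all others).

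Among the cytoplasmic and nuclear signalling genes the main change was in Lef1. In the fit without a block none of the 8 genes rose in the labelled KO libraries. There 2 fell against the ethanol control (25%) and 4 against the 4OHT control (50%), beside 14.2% and 19.8% of all genes. None of the 8 averaged under 4 CPM, and genes under 4 CPM fell less often (2.67% and 7.50%). Among more abundant genes the shares that fell were thus higher than over all genes. With the replicate block 4 of the 8 were lower against each control, beside 22.3% and 25.9% of all genes. Gsk3b was then called higher against the 4OHT control (adjusted p 0.00097). Lef1, a DNA-binding partner of β-catenin, had 27.8, 31.8 and 29.1 CPM in labelled KO libraries, 47.0, 56.2 and 53.5 CPM in 4OHT control libraries and 47.2, 49.0 and 57.7 CPM in ethanol control libraries. The highest labelled KO library was below the lowest control library by more than the spread within any group, and the controls overlapped. Lef1 fell by 0.79 (SE 0.09, adjusted p 8e-06) against the ethanol control and by 0.82 (SE 0.09, adjusted p 2.8e-06) against the 4OHT control, to 0.578 and 0.566 of the control level, and the controls differed by 0.03 (SE 0.08, adjusted p 0.87). All 16 alternative settings kept its calls against both controls.

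The other 3 TCF genes changed less. Tcf7l1, a repressor of pluripotency genes in ES cells, had 104, 101 and 97.4 CPM in labelled KO, 125, 116 and 123 CPM in 4OHT control and 117, 107 and 108 CPM in ethanol control libraries. All labelled KO libraries lay below all control libraries, and it fell by 0.27 (SE 0.05, adjusted p 0.0011) against the 4OHT control, with -0.14 (SE 0.05, adjusted p 0.074, with the replicate block 0.0066) against the ethanol control. Tcf7 had the highest level of the 4 per length, at 42.1, 40.5 and 45.2 CPM per kilobase in labelled KO, 4OHT control and ethanol control, and was not called without the block, with which it was lower against the ethanol control (-0.11, adjusted p 0.046). Tcf7l2, with means of 14.3 ± 1.83 CPM in labelled KO, 13.7 ± 2.16 in 4OHT control and 16.2 ± 1.79 in ethanol control libraries, was not called between labelled KO and either control.

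Of the destruction complex genes, Apc, the scaffold named for colon polyposis, had 163, 152 and 158 CPM in labelled KO, 189, 190 and 198 CPM in 4OHT control and 177, 181 and 180 CPM in ethanol control libraries. Its groups did not overlap, and it fell by 0.19 (SE 0.05, adjusted p 0.0099) against the ethanol control and by 0.29 (SE 0.05, adjusted p 0.00024) against the 4OHT control, the first of which was not called with library totals (adjusted p 0.094). Axin1, the other scaffold, had 75.7 ± 1.89 CPM in labelled KO, 79.9 ± 2.42 in 4OHT control and 80.9 ± 2.53 in ethanol control libraries and was not called in any comparison. Gsk3b, the kinase of the complex, had 96.6, 84.0 and 93.2 CPM in labelled KO, 87.6, 77.8 and 77.5 CPM in 4OHT control and 102, 93.4 and 94.1 CPM in ethanol control libraries. It was lower by -0.25 (SE 0.07, adjusted p 0.015) in the 4OHT control against the ethanol control and differed by 0.17 (SE 0.07, adjusted p 0.051, with the replicate block 0.00097) between labelled KO and the 4OHT control. The Gsk3b call ended without 4OHT control replicate 2 (adjusted p 0.062) or 3 (0.061) or ethanol control replicate 1 (0.066), and was kept with the replicate block (1.7e-05).

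Ctnnb1, which encodes β-catenin and also serves cell junctions, was the most abundant of the 50 per length, at 132 ± 3.73, 147 ± 3.90 and 136 ± 7.23 CPM per kilobase in labelled KO, 4OHT control and ethanol control libraries. It fell by 0.16 (SE 0.05, adjusted p 0.017) against the 4OHT control and differed by -0.04 (SE 0.05, adjusted p 0.54) against the ethanol control, where labelled KO and control libraries overlapped. The call against the 4OHT control ended without labelled KO replicate 1 (adjusted p 0.068), without 4OHT control replicate 2 (0.058) or 3 (0.060) and with library totals (0.19). It was kept with the replicate block (adjusted p 5.7e-05). Ulk4 and 4930593C16Rik overlap Ctnnb1 on the opposite strand, and other counted genes lie opposite Apc, Axin2, Nkd2, Rnf43, Tcf7, Tcf7l1, Wls and Wnt5b, so reads of these pairs may not have been told apart.

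The feedback genes and targets did not move together. Axin2, the target most used as a readout of β-catenin activity, had 22.7, 22.3 and 20.2 CPM in labelled KO libraries, 38.9, 43.8 and 32.5 CPM in 4OHT control libraries and 20.2, 20.4 and 20.0 CPM in ethanol control libraries. Every 4OHT control library was above the rest, and the labelled KO and ethanol control libraries overlapped. Axin2 fell by 0.82 (SE 0.09, adjusted p 5.8e-06) against the 4OHT control, was higher by 0.92 (SE 0.10, adjusted p 6e-06) in the 4OHT control against the ethanol control, and differed by 0.11 (SE 0.10, adjusted p 0.44) between labelled KO and ethanol control, 2 groups of the same cell line.

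Sp5, a transcription factor induced directly by β-catenin and shown above with 2 TCF core matches, had 2.46, 3.21 and 2.44 CPM in labelled KO libraries, 2.85, 2.88 and 3.60 CPM in 4OHT control libraries and 3.50, 4.42 and 6.22 CPM in ethanol control libraries. The ethanol control libraries were spread widely, and labelled KO libraries overlapped the 4OHT control. Sp5 fell by 0.78 (SE 0.21, adjusted p 0.012, with the replicate block 0.00035) against the ethanol control, which was not called without ethanol control replicate 3 (adjusted p 0.064). It differed by -0.21 (SE 0.22, adjusted p 0.49) against the 4OHT control. The 4OHT control against the ethanol control gave -0.58 (SE 0.21, adjusted p 0.066, with the replicate block 0.0068).

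Rnf43 and Znrf3 encode ubiquitin ligases that remove Frizzled receptors from the cell surface. Rnf43 had 46, 23 and 31 reads in labelled KO libraries, 15, 7 and 21 in 4OHT control libraries and 16, 15 and 18 in the ethanol control. All labelled KO libraries had more than any control library, and it rose by 0.97 (SE 0.31, adjusted p 0.032) against the ethanol control and by 1.11 (SE 0.32, adjusted p 0.013) against the 4OHT control. The call against the ethanol control ended without labelled KO replicate 1 (adjusted p 0.15) or 3 (0.065), without ethanol control replicate 1 (0.093) or 2 (0.14) and in DESeq2 (0.075), and that against the 4OHT control without labelled KO replicate 1 (0.070) or 4OHT control replicate 2 (0.058). Znrf3, far more abundant per length (7.69, 7.63 and 7.001 CPM per kilobase in labelled KO, 4OHT control and ethanol control, against 0.238, 0.108 and 0.125 for Rnf43), was not called, with 0.14 (SE 0.05, adjusted p 0.070, with the replicate block 0.018) against the ethanol control and 0.01 (SE 0.05, adjusted p 0.89) against the 4OHT control.

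Nkd1 and Nkd2, antagonists that bind Dishevelled, were not called in any comparison. Nkd1 had 2.86 ± 0.643, 3.31 ± 1.14 and 2.46 ± 0.783 CPM in labelled KO, 4OHT control and ethanol control libraries, and Nkd2 had 5.08 ± 0.747, 5.34 ± 1.19 and 5.64 ± 0.533 CPM. Dkk1, a secreted antagonist of Lrp5 and Lrp6, was not tested, with 18, 22 and 20 reads summed over the 3 libraries of those groups. The 7 feedback genes and targets summed to 14.9 to 15.1 CPM per kilobase in labelled KO libraries, 17.8 to 18.9 in 4OHT control libraries and 14.3 to 16.01 in ethanol control libraries, so labelled KO and ethanol control overlapped.

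**Figure D5:**
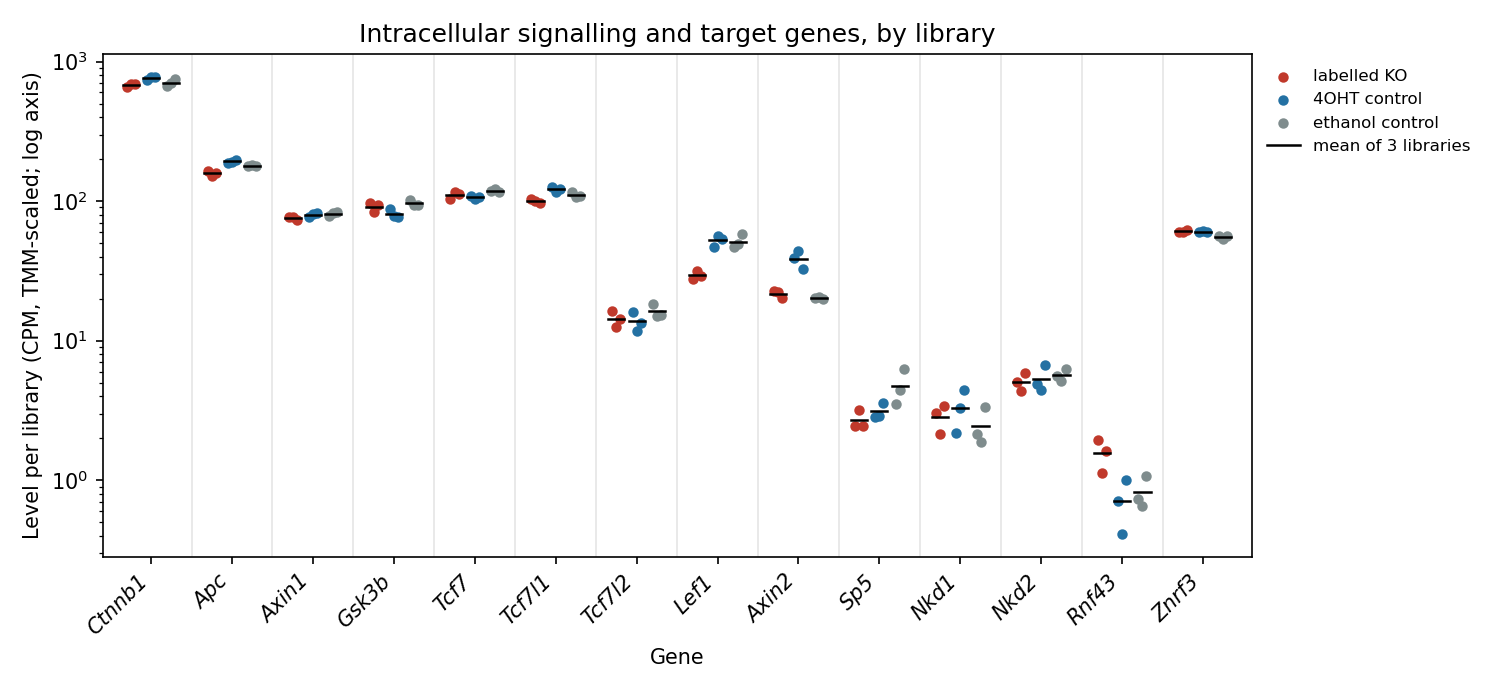
Level of the signalling genes and of the feedback genes and targets (x axis) in every library in CPM on a log axis (y axis), with group means as black lines. Lef1 is lower in the labelled KO libraries (27.8 to 31.8 CPM) than in both controls, while for Axin2 the 4OHT control (32.5 to 43.8 CPM) stands above both other groups.

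In the fit without a block, the 4OHT control and the ethanol control differed in 8 members, without any loss of Zbtb11 being planned in either. Axin2, Fzd6, Fzd10 and Lgr5 were higher in the 4OHT control and Wnt5a, Lrp6, Gsk3b and Lgr4 were lower. With the replicate block, 14 members were called higher in the 4OHT control and 10 lower. These included Porcn (adjusted p 2.2e-13) and Lrp5 (0.0026) on the higher side, and Wnt7b (0.0001) and Sp5 (0.0068) on the lower. For Axin2, Lrp6, Wnt5a and Fzd6 the labelled KO libraries overlapped the ethanol control, which is of the same genotype, so their calls against the 4OHT control came with a call between the controls. These comparisons share the 4OHT control libraries. The summed level of 8 trophectoderm markers was 83.6 to 86.0 CPM in labelled KO, 50.9 to 69.9 in 4OHT control and 82.0 to 87.4 in ethanol control libraries, with 2 of the 8 under 1 CPM, and 8 fibroblast markers summed to 22.7 to 23.9, 18.4 to 18.97 and 18.9 to 23.0 CPM, with 4 of the 8 under 1 CPM. Tfap2c made up most of the trophectoderm sum, at 59.2 to 65.7 CPM in labelled KO, 37.0 to 57.5 in 4OHT control and 65.8 to 74.3 in ethanol control libraries. Within the fibroblast list Thy1 went the other way, at 5.41 to 5.84 CPM in labelled KO, 8.21 to 9.64 in 4OHT control and 5.87 to 6.52 in ethanol control libraries, while Col1a1 had 9.39 to 10.1, 4.35 to 5.09 and 7.28 to 8.79 CPM in those groups. Their part in the differences of the 4OHT control was not tested. Neural ectoderm markers, of which 7 of 8 were matched and 4 averaged under 1 CPM, summed to 144 to 165, 168 to 193 and 146 to 173 CPM.

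Further pathway genes outside the 50 were read from lists of textbook components, with the 4 of each list named that had the lowest adjusted p against the ethanol control. Of 21 intracellular signalling genes tested (Dishevelled proteins, casein kinases and others), 5 rose and 4 fell against the ethanol control (23.8% and 19%, beside 13.0% and 14.2% of all genes) and 5 rose and 6 fell against the 4OHT control (23.8% and 28.6%, beside 19.1% and 19.8%), with median log2 fold changes of -0.02 and -0.06. Apc2, a relative of Apc, rose by 0.93 (SE 0.16, adjusted p 0.00054) and 1.43 (SE 0.17, adjusted p 6.7e-06) against the ethanol and 4OHT controls. Against the same controls Dixdc1, which binds Dishevelled, rose by 0.68 and 0.56 (adjusted p 0.0003 and 0.00076), and Dvl3, a Dishevelled protein itself, by 0.30 and 0.29 (adjusted p 0.0036 and 0.0035). Csnk1g2, a casein kinase, fell by 0.29 and 0.23 (adjusted p 0.0025 and 0.0067).

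Of 22 secreted inhibitors, agonists and other surface modifiers tested out of 30 listed, 2 rose and 2 fell against the ethanol control (9.09% each, beside 13.0% and 14.2% of all genes) and 5 rose and 4 fell against the 4OHT control (22.7% and 18.2%, beside 19.1% and 19.8%). Notum, a secreted enzyme that removes the lipid from Wnt ligands and is itself a pathway target, averaged 8.92 CPM in labelled KO, 25.7 in 4OHT control and 15.99 in ethanol control libraries. It fell by 0.85 (SE 0.12, adjusted p 8.9e-05) against the ethanol control and by 1.52 (SE 0.12, adjusted p 5.4e-08) against the 4OHT control, and was higher by 0.68 (SE 0.11, adjusted p 0.00043) in the 4OHT control than in the ethanol control. Sfrp4, a secreted Wnt-binding protein, fell by 0.61 and 0.83 against the ethanol and 4OHT controls (adjusted p 0.013 and 0.00081). Ptk7, a receptor-like kinase of the planar polarity branch, rose against these by 0.43 and 0.80 (adjusted p 4.1e-05 and 2.2e-08), and Lgr6, which encodes another R-spondin receptor, by 0.68 and 0.71 (adjusted p 0.031 and 0.019).

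All 25 nuclear cofactors of β-catenin listed were tested, and 2 rose and 8 fell against the ethanol control (8% and 32%, beside 13.0% and 14.2% of all genes), while 4 rose and 8 fell against the 4OHT control (16% and 32%, beside 19.1% and 19.8%). Their median log2 fold changes were -0.13 and -0.04. Genes under 4 CPM fell less often in these comparisons (2.67% and 7.50%). Among more abundant genes the shares that fell were thus higher than over all genes. Tbl1xr1 and Tbl1x, subunits of a corepressor complex, fell by 0.27 and 0.22 against the ethanol control (adjusted p 0.00056 and 0.0027) and by 0.33 and 0.19 against the 4OHT control (adjusted p 5.3e-05 and 0.0045). Aes, a short Groucho-family protein, fell by 0.35 and 0.51 against the ethanol and 4OHT controls (adjusted p 0.0023 and 5.3e-05), and the histone deacetylase Hdac1 by 0.25 against the ethanol control (adjusted p 0.0033), with -0.13 against the 4OHT control (adjusted p 0.082, with the replicate block 0.0053).

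Of 27 other reported target genes tested out of 29 listed, 3 rose and 4 fell against the ethanol control (11.1% and 14.8%, beside 13.0% and 14.2% of all genes) and 2 rose and 7 fell against the 4OHT control (7.41% and 25.9%, beside 19.1% and 19.8%). The adhesion receptor Cd44 rose by 1.02 (SE 0.26, adjusted p 0.0090) against the ethanol control and 1.56 (SE 0.28, adjusted p 0.00041) against the 4OHT control, and the Eph receptor gene Ephb3 by 0.31 and 0.39 against those (adjusted p 0.013 and 0.0018). Dact1, an antagonist that binds Dishevelled, fell by 0.55 and 0.79 against the ethanol and 4OHT controls (adjusted p 0.018 and 0.001). Nr5a2, a nuclear receptor of ES cells, fell by 0.33 against the ethanol control (adjusted p 0.0011) and differed by 0.12 against the 4OHT control (adjusted p 0.16, with the replicate block 0.028), as it was also lower by -0.45 in the 4OHT control against the ethanol control (adjusted p 0.00011).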

How the data were processed

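Gene-level read counts of 9 RNA libraries were used as the authors deposited them, whole numbers per gene and not normalized. The submitters' processing notes name cutadapt, STAR, HTSeq, edgeR and the build mm9 among the tools, and do not say whether counting used strand. The no-feature, ambiguous and similar rows were left out of library sizes. Gene symbols and exon lengths came from GENCODE M21, and 3.92% of counts had no symbol there. The 3 comparisons were fitted together with edgeR 4.0.16 (limma 3.58.1, R 4.3.3): filterByExpr by group, TMM factors, a robust quasi-likelihood fit with 6 residual degrees of freedom, and Benjamini-Hochberg adjustment over 16224 genes. The filter stood near 0.468 CPM. Standard errors are the log2 fold change divided by the root of F. Libraries with the same replicate number deviated together (r 0.11 to 0.31 over 9 pairs, against -0.23 to -0.02 over 18 pairs with different numbers), so the numbers were taken to pair the libraries. No 2 replicates agreed within sampling noise (chi-square per degree of freedom 4.78 to 16.3). The script was tested on simulated data. Members, gene lists and tests were chosen with earlier results of these data known. All members are named, and from each pathway list the 4 genes with the smallest p against the ethanol control. Alternatives were DESeq2 1.42.0, other scalings and filters, the fit of 2 groups alone, the replicate block and each library left out.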

Additional observations from a re-analysis of the deposited data

How the results depend on the processing

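Of 42 member calls over the 3 comparisons, 25 were called in every alternative that gave a p, 7 of 14 for labelled KO against ethanol control, 14 of 20 for labelled KO against 4OHT control and 4 of 8 for the 4OHT control against the ethanol control. No called value changed sign in the 16 alternatives. With the replicate block all 42 calls were kept. Few reads limit the ligand calls, and DESeq2 gave no adjusted p for Wnt7a, Wnt8b, Wnt10a and Wnt11 against the ethanol control.

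With library totals, all genes lower in labelled KO than in the ethanol control numbered 1527 and members lower numbered 3. DESeq2 called 4 members higher in that comparison. With the replicate block, all genes called numbered 3311 higher and 3625 lower for labelled KO against ethanol control, with 10 members lower, and 14 members were higher against the 4OHT control. For the 4OHT control against the ethanol control the block gave 2754 higher and 2569 lower genes, and 14 higher and 10 lower members. The cause was not tested.

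Leaving out 1 library gave 1355 (without labelled KO replicate 1) to 2132 genes higher and 3 (without ethanol control replicate 3) to 7 members lower for labelled KO against ethanol control, and 1358 genes higher without ethanol control replicate 2. For the 4OHT control against the ethanol control it gave 1014 (without ethanol control replicate 2) to 1583 genes higher and 2 to 3 members higher, 2 without 4OHT control replicate 1 or 2.

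Some uncalled values crossed 0. With library totals Ctnnb1 stood at 0.03 and Fzd3 at 0.01 for labelled KO against ethanol control, and Axin1, Fzd10 and Fzd7 at 0.01 and Wls at 0.07 against the 4OHT control. Over the libraries left out, labelled KO against ethanol control ranged over -0.03 to 0.05 for Lrp6, -0.37 to 0.84 for Wnt7a, -0.16 to 0.40 for Wnt2b, -0.15 to 0.02 for Fzd9, -0.28 to 0.18 for Porcn, -0.14 to 0.29 for Wnt5a, -0.44 to 0.05 for Wnt7b and -0.11 to 0.01 for Fzd3. Against the 4OHT control the ranges were -0.05 to 0.18 for Tcf7l2, -0.10 to 0.10 for Wls, -0.07 to 0.24 for Wnt16, -0.05 to 0.19 for Fzd9, -0.20 to 0.11 for Nkd2, -0.01 to 0.02 for Znrf3, -0.18 to 0.05 for Fzd7 and -0.45 to 0.08 for Nkd1. For the 4OHT control against the ethanol control they were -0.46 to 0.05 for Fzd1, -0.44 to 0.50 for Wnt10a, -0.62 to 0.07 for Wnt11, -0.03 to 0.29 for Fzd8, -0.03 to 0.12 for Lef1, -0.27 to 0.04 for Nkd2, -0.48 to 0.10 for Rnf43 and -0.70 to 0.06 for Wnt4.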

Other observations

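Planar cell polarity genes, which orient cells within a sheet and share Frizzled and Dishevelled proteins with the pathway, were called in both directions. Of 19 tested, 1 rose and 4 fell in labelled KO against the ethanol control (5.26% and 21.1%, beside 13.0% and 14.2% of all genes), and 3 rose and 4 fell against the 4OHT control (15.8% and 21.1%, beside 19.1% and 19.8%). Celsr1, an adhesion receptor of the polarity complex, averaged 51.9 CPM in labelled KO, 32.3 CPM in 4OHT control and 32.9 CPM in ethanol control libraries, and rose by 0.66 (SE 0.08, adjusted p 2.9e-05 in edgeR) against the ethanol control and by 0.68 (SE 0.08, adjusted p 1e-05) against the 4OHT control. Vangl1, a membrane protein of the same complex, averaged 36.0 CPM in labelled KO, 57.4 CPM in 4OHT control and 49.3 CPM in ethanol control libraries, and fell by 0.45 (SE 0.06, adjusted p 3.9e-05) and 0.67 (SE 0.06, adjusted p 2.5e-07) against the ethanol and 4OHT controls. Its relative Vangl2 fell by 0.31 (SE 0.08, adjusted p 0.0075) against the ethanol control and differed by -0.10 (SE 0.08, adjusted p 0.33) against the 4OHT control. Intu, needed for cilia, fell by 0.26 (SE 0.08, adjusted p 0.025) and 0.36 (SE 0.08, adjusted p 0.0022) against the ethanol and 4OHT controls.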
